A study of Mus musculus with 24 samples.

Results

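The let-7 family is a group of near-identical microRNAs (miRNAs), short RNAs that guide Argonaute proteins to messenger RNAs. It was followed here in the male germ cells of mice that lack Ago1, Ago3 and Ago4. The members were the rows of the deposited count table for the 5p strands of let-7a, let-7b, let-7c, let-7d, let-7e, let-7f, let-7g and let-7i, together with let-7j and miR-98-5p. The 5p strand is the one cut from the 5′ arm of the hairpin, and in this family it is the strand that acts as a guide. These were 10 of the 1978 mature miRNAs of the table, and all 10 had at least 10 counts in every library, so that every member was tested.

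Small RNA was sequenced from pachytene/diplotene spermatocytes (SP), the cells of late meiotic prophase I, and from round spermatids (RS), the haploid cells that follow meiosis. Each cell type was taken from Ago413+/+, Ago413+/- and Ago413-/- testes of C57BL/6J mice aged 10 to 15 weeks, with 4 libraries in each of the 6 groups. The Ago413 allele is one constitutive deletion across neighbouring genes, and it removes Ago1 entirely and Ago3 and Ago4 in part. Ago413+/- animals carry 1 copy of it and Ago413-/- animals carry 2, while Ago2 was not targeted. Testes of 2 to 5 mice were pooled for a suspension, and fractions of a bovine serum albumin gradient were combined where they held above 70% of the wanted cells, so other testis cells were present. The labels do not say whether the 4 libraries of a group came from separate suspensions, and the p-values below measure the spread between these libraries, which may be partly technical. The miRNA table cannot show the loss of the Argonaute messenger RNAs, so the genotypes rest on the labels.

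Members of the let-7 family share their seed, the stretch near the 5′ end that pairs with target messenger RNAs, and are therefore expected to read the same target sites. They are known to hold back growth and stem cell genes and to accumulate as cells differentiate. In spermatogonia and other immature cells, Lin28 proteins are known to block the maturation of let-7 precursors. The family lies at many places in the genome, often beside miRNAs of the miR-99, miR-100 and miR-125 families. Mature miRNAs are kept stable by the Argonaute that holds them.

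The mature sequences are given because the members differ by so few bases that their counts are best read with these in view. The bases in capitals are the seed, bases 2 to 8 from the 5′ end, and the sequences are those of RefSeq for GRCm38.p6, in which all 10 members matched by name.
mmu-let-7a-5p: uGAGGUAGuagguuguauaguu
mmu-let-7b-5p: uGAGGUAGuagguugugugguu
mmu-let-7c-5p: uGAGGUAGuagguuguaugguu
mmu-let-7d-5p: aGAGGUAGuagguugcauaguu
mmu-let-7e-5p: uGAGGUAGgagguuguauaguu
mmu-let-7f-5p: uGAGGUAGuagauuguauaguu
mmu-let-7g-5p: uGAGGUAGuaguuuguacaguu
mmu-let-7i-5p: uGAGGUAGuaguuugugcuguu
mmu-let-7j: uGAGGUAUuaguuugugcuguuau
mmu-miR-98-5p: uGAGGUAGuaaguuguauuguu

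The seed GAGGUAG was common to 9 of the 10 members. mmu-let-7j had the seed GAGGUAU, which it shared with miR-202-3p, a miRNA of the gonads that held 48 to 716 counts per library. Among the 1679 miRNAs of the table with a RefSeq sequence, 2 others carried the common seed, let-7k with 0 to 5 counts per library and miR-1961 with 0 to 3, and neither had enough counts to be tested. Positions are counted from 1 at the 5′ end, with the base of let-7a first. let-7c (A19G), let-7e (U9G) and let-7f (G12A) each differed from let-7a by 1 base. let-7b (A17G and A19G), let-7d (U1A and U16C), let-7g (G12U and U18C) and miR-98 (G11A and A19U) each differed by 2 bases. let-7i differed by 4 bases (G12U, A17G, U18C and A19U). let-7j differed from let-7i by 1 base (G8U, with the base of let-7i first), which lies inside the seed, and by 2 added bases at the 3′ end. The GC content ran from 31.8% in let-7f and miR-98 to 45.5% in let-7b. Reads of members 1 base apart can be shared or exchanged in counting, and the values of these members are uncertain to that extent.

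The hairpins of the members mapped to 13 places on 8 chromosomes (GRCm38, with GENCODE annotation). Mirlet7d (chr13:48536012-48536114), Mirlet7f-1 (chr13:48537829-48537917) and Mirlet7a-1 (chr13:48538179-48538272) form a cluster on the minus strand in exons of the long noncoding RNA 6720427I07Rik. Mirlet7c-2 (chr15:85706603-85706697) and Mirlet7b (chr15:85707319-85707403) lie 621 bases apart in exons of the noncoding transcript Lncppara. Mirlet7f-2 (chrX:151912346-151912428) and Mir98 (chrX:151913214-151913321) lie 785 bases apart in an intron of Huwe1, a ubiquitin ligase gene on the X chromosome, which is silenced during meiotic prophase. Mirlet7g (chr9:106178840-106178927) lies in an intron of Wdr82, and Mirlet7e (chr17:17830352-17830444) in an intron of Spaca6, 367 bases from Mir125a. Mirlet7c-1 (chr16:77599657-77599750) lies in an intron of the noncoding host gene Mir99ahg, 656 bases from Mir99a. Mirlet7a-2 (chr9:41536716-41536811) lies in introns of the noncoding genes 3110039I08Rik and Gm49317, 5211 bases from Mir100. Mirlet7i (chr10:122985640-122985724, minus strand) lies in an exon of the noncoding transcript D630033A02Rik, and the hairpin of let-7j, Mir7j (chr3:140028249-140028370), overlaps no annotated gene. let-7a, let-7c and let-7f each have 2 hairpins, and their counts cannot be divided between them.

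Library totals ran from 182904 to 1072637 counts, and no libraries of the same group were duplicates of each other. Libraries of different groups were not compared in this way. The smallest library, SP Ago413-/- replicate 2, stood apart from the rest in the make-up of the family (below), in its dependence of counts on GC content and in having the lowest summed level of miR-34b-5p, miR-34c-5p and miR-449a-5p, which are known from meiotic germ cells, at 18716 CPM (counts scaled to library size) against 36442 to 185941 in the other 23 libraries. SP Ago413+/- replicate 4, with 36442 CPM, was the next lowest. Comparisons that use these 2 libraries are also described without them where they bear on the members. Levels below are CPM after TMM scaling, a correction for differences in library composition. They compare a miRNA between libraries, while levels of different miRNAs in 1 library also carry the preference of the ligation step for some ends. The counts came from PCR-amplified reads and are not counts of independent molecules.

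The family was one of the largest sources of miRNA counts in both cell types. The members made up between 8.61% and 18.9% of a library, with a median of 11.6%. In SP the share was 11.2% ± 1.75 (SD, n = 4) in Ago413+/+, 12.2% ± 3.15 in Ago413+/- and 14.2% ± 3.18 in Ago413-/-. In RS it was 11.3% ± 1.63, 9.74% ± 1.26 and 12.3% ± 1.47 in the same order. The group means thus lay within a few percentage points of each other, and the ranges of libraries overlapped in both cell types. Without the library that stood apart, the mean of SP Ago413-/- was 12.6%, and without replicate 4 the mean of SP Ago413+/- was 10.8%.

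mmu-let-7g-5p was the most abundant member and the third most abundant miRNA of the whole table by mean level. It was the highest member in 22 of the 24 libraries and held up to 49.4% of the members' counts. The exceptions were SP Ago413+/- replicate 4 and SP Ago413-/- replicate 2, in which let-7a was highest with 31.0% and 34.5% of the members' counts. let-7a ranked 9 in the table, let-7f 18, let-7i 21 and let-7c 22. let-7d (51) and let-7b (54) followed, and let-7e (124), miR-98 (142) and let-7j (170) were far lower.

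**Figure D1:**
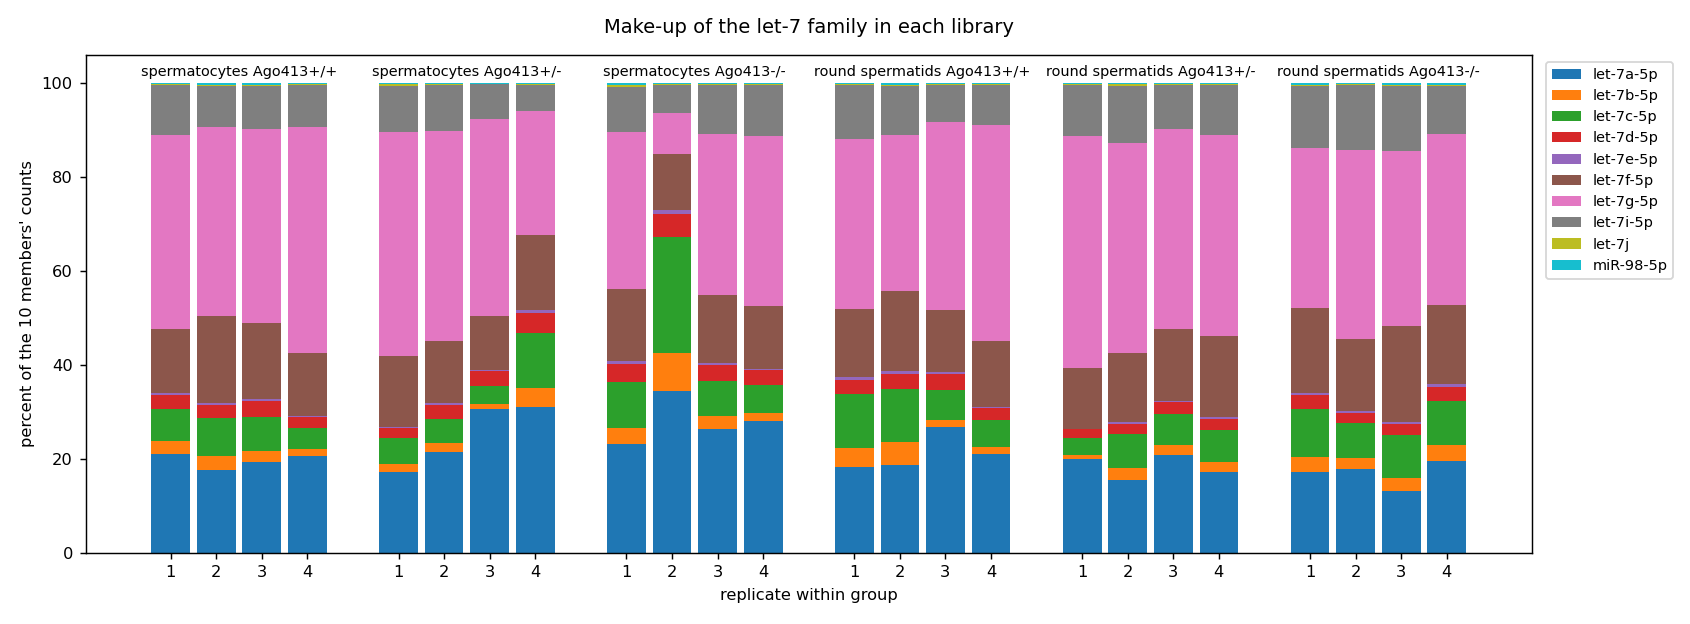
Share of each member in the counts of the 10 members, in percent, for each of the 24 libraries (stacked bars, 4 replicates per group). let-7g (pink) took the largest share in 22 libraries; SP Ago413-/- replicate 2, where let-7g held 8.84% and let-7c 24.7%, differed most from its group.

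In Ago413+/+ SP the level of let-7g was 44692 ± 8368 CPM (SD, n = 4) and that of let-7a 20427 ± 2525, with no overlap between them. let-7f followed with 16487 ± 5611 and overlapped with let-7a. let-7i (9860 ± 1460) lay below let-7f without overlap. let-7c (7070 ± 2643) overlapped with let-7i, although let-7i was the higher in each of the 4 libraries. let-7d (3093 ± 648) lay below let-7c without overlap and overlapped with let-7b (2506 ± 1129). The lowest 3 members were let-7e (369 ± 159), miR-98 (320 ± 166) and let-7j (191 ± 27.3), all well below let-7b and each overlapping with its neighbour.

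The order in Ago413+/+ RS was the same from let-7g to let-7j. The means there were 45262 CPM for let-7g, 25216 for let-7a, 16837 for let-7f, 10797 for let-7i, 9556 for let-7c, 3596 for let-7d, 3255 for let-7b, 478 for let-7e, 289 for miR-98 and 223 for let-7j. Between neighbours in this order, the ranges of libraries were apart at 3 steps, from let-7f to let-7i, from let-7c to let-7d and from let-7b to let-7e, and overlapped at the others. The order of the other groups differed mainly in SP Ago413-/-, where let-7a had the highest mean (45813 ± 23009) and let-7g the next (39708 ± 13538), with overlapping ranges.

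**Figure D2:**
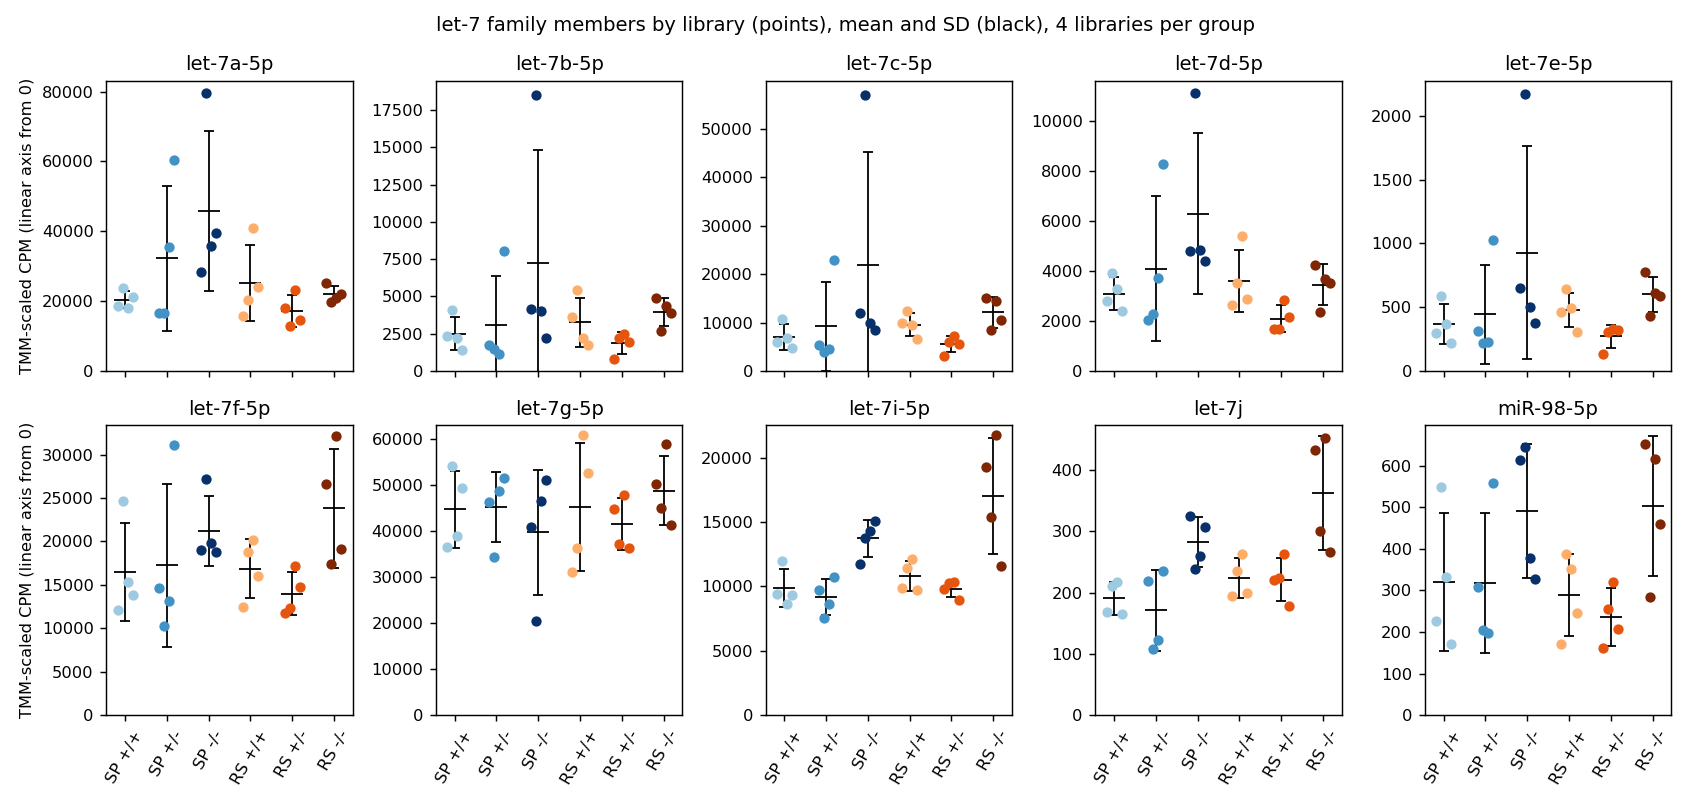
Level of each member (TMM-scaled CPM, linear axes starting at 0) in the 4 libraries of each group; SP and RS are spermatocytes and round spermatids, +/+, +/- and -/- the Ago413 genotypes, points are libraries and black bars the mean and SD, cut at 0 where they reach it. In RS, the Ago413-/- points of let-7j lie above all Ago413+/+ points, while those of let-7a, between 19880 and 25294 CPM, lie within the range of Ago413+/+.

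The comparison of RS with SP asked whether the family changed as the cells passed from meiosis to the haploid stage. No member was called in Ago413+/+ (0 of 10, beside 0.00% of 450 miRNAs tested). The log2 fold changes ran from -0.15 for miR-98 to 0.43 for let-7c, each with an adjusted p of 0.996 from edgeR, and no member had an unadjusted p under 0.05, against 10 of the 450. For let-7i the levels were 9428, 11988, 8661 and 9363 CPM in SP and 9868, 11451, 12122 and 9746 in RS. For let-7g they were 36505, 54121, 38906 and 49235 in SP and 31170, 36394, 60913 and 52572 in RS. The libraries of both cell types were intermingled for these members. Summed over the miRNAs with the common seed, the log2 fold change was 0.08 (SE 0.27, adjusted p = 0.981 over 371 seeds). Here and below, a miRNA without a RefSeq sequence was counted as a seed of its own.

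In Ago413+/- no member was called between the cell types either (0.00% of 450 called). let-7a and let-7d had log2 fold changes of -0.91 and -0.97, with unadjusted p under 0.05 for both, and the adjusted p was 0.988 for each. The median over the members was -0.56, beside -0.02 over all 450, and 2 members were above 0. Without SP Ago413+/- replicate 4, one of the libraries that stood apart, let-7a had -0.41 and let-7d -0.39 (adjusted p = 0.951 for each), the median became 0.10 and 6 members were above 0.

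In Ago413-/- no member was called, while 4.89% of the 450 miRNAs were. let-7a was lower in RS than in SP by the point estimate, with a log2 fold change of -1.05 (SE 0.37, adjusted p = 0.0802), and let-7d had -0.86 (SE 0.38, adjusted p = 0.153). let-7a passed the thresholds with DESeq2, with the GC offset described below or without SP Ago413-/- replicate 1. These estimates also moved with 1 library. With all libraries the median over the members was -0.29, beside 0.05 over all 450, and 5 members were above 0. Without SP Ago413-/- replicate 2, let-7a had -0.50 (adjusted p = 0.416) and let-7d -0.29 (adjusted p = 0.637), the median became 0.36, beside 0.14 over all miRNAs, and 8 members were above 0. In that setting 1 miRNA of the table was called, and it was no member.

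In SP, the comparison of Ago413-/- with Ago413+/+ asked whether the family's levels depend on the missing Argonautes during meiosis. No member passed the thresholds of an adjusted p under 0.05 and a change of at least 2-fold (0 of 10, beside 4.46% of 404 miRNAs tested). With DESeq2 let-7a did pass (adjusted p = 0.0473), as 1 of 61 miRNAs called among 404. Without the filter on low counts let-7b and let-7c did, among 55 called of 1059. The estimates were above 0 for 9 of the 10 members, with a median log2 fold change of 0.82, beside -0.05 over all 404 miRNAs, and 5 members (let-7a, let-7b, let-7c, let-7d and let-7e) had an unadjusted p under 0.05, as did 103 of the 404. When a per-library dependence of counts on GC content was removed by an offset, no member was called either and the median was 1.19, beside 0.09 over all miRNAs. let-7f was at 0.75 there (adjusted p = 0.299). Without Ago413-/- replicate 2 the median was 0.45, with all 10 members above 0. The summed germ cell markers held 58028 to 111989 CPM in Ago413+/+ SP and 18716 to 78802 in Ago413-/- SP. For the markers of other cells named below, the ranges were 398 to 1804 against 259 to 2604 (endothelium). They were 21.9 to 2407 against 459 to 2866 (blood) and 1063 to 2702 against 1277 to 2429 (peritubular). All these ranges overlapped, and the part of the cell mix in the SP estimates was not tested.

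let-7a gave the clearest separation in SP. Its levels were 18707, 23639, 18142 and 21217 CPM in the 4 Ago413+/+ libraries and 28296, 79606, 35807 and 39543 in the Ago413-/- libraries, so the groups did not overlap. The log2 fold change was 1.17 (SE 0.42, adjusted p = 0.0959). The Ago413+/- libraries lay at 16706, 16461, 35423 and 60289 CPM and spanned both other groups. let-7d (2411 to 3909 CPM against 4400 to 11084) and let-7j (165 to 217 against 240 to 325) also showed no overlap between Ago413+/+ and Ago413-/-. Levels of every Ago413-/- library above every Ago413+/+ library were seen in 6.67% of 450 miRNAs and in 3 of the 10 members; by plain CPM, without TMM scaling, the members were reduced to let-7a.

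The largest estimates in SP rested on the library that stood apart. For let-7c the levels were 11993, 56992, 9941 and 8468 CPM in Ago413-/- and 5992, 10823, 6766 and 4699 in Ago413+/+, and the log2 fold change was 1.64 (SE 0.66, adjusted p = 0.126). let-7b (log2 fold change 1.54, adjusted p = 0.172) and let-7e (1.33, adjusted p = 0.177) had the same shape, with replicate 2 at 18496 and 2169 CPM. Without replicate 2, let-7c had a log2 fold change of 0.50 (adjusted p = 0.619), let-7b 0.45 and let-7e 0.45, and let-7a kept 0.73 (adjusted p = 0.264). let-7g was the one member that went the other way with all libraries, with a log2 fold change of -0.19 (SE 0.29, adjusted p = 0.724). Its level in replicate 2 was 20379 CPM, against 40931 to 51089 in the other 3 Ago413-/- libraries, and without that library its log2 fold change was 0.022.

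let-7i varied little among the SP libraries. Its Ago413-/- levels were 11733, 13759, 14292 and 15109 CPM, against 9428, 11988, 8661 and 9363 in Ago413+/+, a log2 fold change of 0.47 (SE 0.24, adjusted p = 0.260) that was 0.45 without replicate 2. One Ago413+/+ library overlapped with the Ago413-/- range. Summed over the common seed, the family had a log2 fold change of 0.43 (SE 0.31, adjusted p = 0.402 over 335 seeds) in SP.

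Neither comparison with Ago413+/- in SP called a member. No member was called between Ago413+/- and Ago413+/+ (0.00% of 404 called, 13 with an unadjusted p under 0.05 and no member among them). The median over the members was 0.19 with 8 above 0, and without Ago413+/- replicate 4 it was -0.29 with 2 above 0. Ago413-/- against Ago413+/- called 0 of 10 members beside 2.23% of all miRNAs, with a median over the members of 0.60, which became 0.11 without Ago413-/- replicate 2. When Ago413+/- replicate 4 was left out, let-7b, let-7c and let-7e were called higher in Ago413-/-. In that setting 57 of 399 miRNAs were called, 21 of them higher. That replicate held 8014 CPM of let-7b, 22972 of let-7c and 1025 of let-7e, each the highest of its group by a wide margin. These comparisons share libraries with the one above and are not independent of it.

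In RS, 4 of the 10 members were higher in Ago413-/- than in Ago413+/+ at an adjusted p under 0.05, beside 12.4% of 426 miRNAs called higher by the same rule. They were let-7i, let-7j, miR-98 and let-7f, and none was lower. Each change was below 2-fold, so that no member passed both thresholds, which 16.2% of the 426 miRNAs did. The median log2 fold change of the members was 0.49, beside 0.13 over all miRNAs tested. With library totals in place of TMM scaling these medians were 0.25 and -0.09.

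mmu-let-7i-5p had the smallest adjusted p. Its levels were 9868, 11451, 12122 and 9746 CPM in Ago413+/+ RS and 19298, 15378, 21787 and 11610 in Ago413-/-. Replicate 4 of Ago413-/- lay within the Ago413+/+ range and the other 3 libraries above it. The log2 fold change was 0.81 (SE 0.20, adjusted p = 0.0111), or 1.76-fold.

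mmu-let-7j, whose sequence differs from that of let-7i in the seed, moved alongside it. It held 195, 236, 264 and 199 CPM in Ago413+/+ and 432, 301, 452 and 267 in Ago413-/-, and the groups did not overlap. The log2 fold change was 0.86 (SE 0.25, adjusted p = 0.0184). It was the only member whose Ago413-/- levels were all above those of Ago413+/+, a separation found in 7.78% of 450 miRNAs; by plain CPM let-7i showed it as well.

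miR-98 and let-7f, of which the Huwe1 intron holds Mir98 and 1 of the 2 let-7f hairpins, were the other members called. miR-98 held 171, 388, 352 and 246 CPM in Ago413+/+ and 652, 284, 616 and 459 in Ago413-/-, with replicate 2 inside the Ago413+/+ range. Its log2 fold change was 0.96 (SE 0.32, adjusted p = 0.0370). let-7f held 12408, 18740, 20116 and 16083 CPM in Ago413+/+ and 26642, 17399, 32146 and 19123 in Ago413-/-, with 2 libraries inside the Ago413+/+ range and 2 above it. Its log2 fold change was 0.66 (SE 0.23, adjusted p = 0.0442). let-7f is also made from the chromosome 13 cluster, and its neighbours there were not called. The counts of let-7f cannot be divided between its 2 hairpins, and the part of each place in these changes was not tested.

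The 6 members not called in this comparison had log2 fold changes of 0.49 (let-7c, adjusted p = 0.205), 0.48 (let-7e, adjusted p = 0.254), 0.41 (let-7b), 0.27 (let-7g), 0.11 (let-7d) and -0.02 (let-7a, adjusted p = 0.979). The direction of let-7d turned with library totals (-0.10). For let-7a the levels were 15633, 20376, 40881 and 23974 CPM in Ago413+/+ and 25294, 19880, 20917 and 22179 in Ago413-/-. The wide range was that of the Ago413+/+ libraries. The sum over the common seed, which let-7g and let-7a dominate, had a log2 fold change of 0.13 (SE 0.20, adjusted p = 0.710 over 353 seeds), with adjusted p between 0.317 and 0.978 under 14 other settings.

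**Figure D3:**
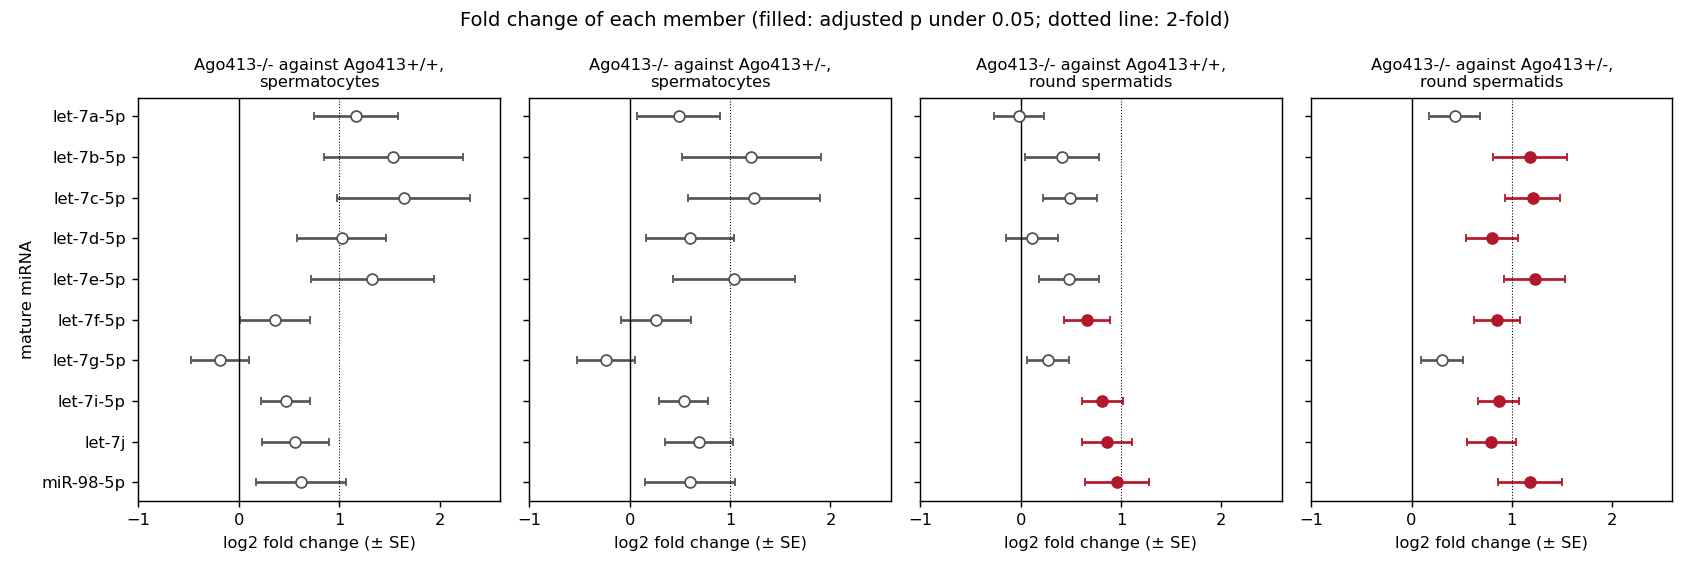
Log2 fold change (± SE) of each member in 4 genotype comparisons from edgeR; filled red points had an adjusted p under 0.05 and the dotted line marks a 2-fold increase. Filled points appear only in RS, 4 against Ago413+/+ and 8 against Ago413+/-.

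These calls were sensitive to single libraries. Without Ago413-/- replicate 1, or without any one of Ago413+/+ replicates 1, 2 and 4, no member had an adjusted p under 0.05, and without Ago413-/- replicate 3 only let-7i did. let-7i was called under 10 of 17 other settings, with adjusted p between 0.00716 and 0.163, and let-7j under 8. miR-98 was called under 2 and let-7f under 1. The 4 Ago413-/- libraries of RS had a dependence of log2 CPM on GC content of -0.12 to -0.0056 per 10 percentage points, against -0.0093 to 0.23 in Ago413+/+. When that trend was removed by an offset per library, no member was called, and the log2 fold changes were 0.54 for let-7i (adjusted p = 0.0787) and 0.36 for let-7j (adjusted p = 0.312).

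Some marker miRNAs of other testis cells were higher in the same RS comparison, and others did not pass. miR-126a-3p, a miRNA of endothelium, had a log2 fold change of 1.63 (adjusted p = 0.0120), and miR-451a (3.26, adjusted p = 0.0299) and miR-486a-5p (2.11, adjusted p = 0.0305), miRNAs of red blood cells, were also higher. miR-126a-5p, the other endothelial marker, did not pass. Both measured endothelial markers together held 1949 to 5853 CPM in Ago413-/- and 511 to 1988 in Ago413+/+. The blood markers held 103 to 612 CPM in Ago413-/- replicates 1, 2 and 3 and 4808 in replicate 4, against 49.1 to 501 in Ago413+/+. The upper end of the Ago413-/- range was thus replicate 4 alone. The peritubular markers miR-143-3p (-0.14) and miR-145a-5p (-1.74, adjusted p = 0.204) did not pass, and of the germ cell markers miR-449a-5p was higher (0.98, adjusted p = 0.0110) while miR-34b-5p (0.16) and miR-34c-5p (0.21) did not pass. Of the 9 markers tested, 4 were called higher and none lower. miR-144-3p, the other blood marker, had too few counts to be tested. let-7 miRNAs are made by most cell types, and the part of these cells in the members' levels was not tested. In bulk fractions, a different mix of cells and a different content per cell cannot be told apart.

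The comparison of Ago413-/- with Ago413+/- in RS called more members. Of the 10, let-7b, let-7c, let-7e and miR-98 were higher by at least 2-fold at an adjusted p under 0.05, beside 5.16% of 426 miRNAs. At any fold change 8 of the 10 were higher, beside 8.22% of the 426, with let-7d, let-7f, let-7i and let-7j added. The median log2 fold change of the members was 0.86, beside 0.13 over all miRNAs. This comparison shares its Ago413-/- libraries with the one against Ago413+/+.

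mmu-let-7c-5p was the most stable of these calls. Its RS levels were 3189, 6076, 7326 and 5652 CPM in Ago413+/- and 14986, 8410, 14410 and 10550 in Ago413-/-, and the groups did not overlap. The log2 fold change was 1.21 (SE 0.27, adjusted p = 0.00817), and the adjusted p stayed under 0.05 in 17 of 17 other settings, where it ran from 0.00151 to 0.0461. The Ago413+/+ libraries lay at 9848, 12312, 9472 and 6591 CPM, between the other genotypes and overlapping both.

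let-7e had the same pattern at a much lower level, with 137, 309, 326 and 318 CPM in Ago413+/- and 773, 434, 613 and 586 in Ago413-/-. The ranges were apart, and the log2 fold change was 1.23 (SE 0.30, adjusted p = 0.0124), called in 16 of 17 other settings. let-7b held 801, 2189, 2489 and 1920 CPM in Ago413+/- and 4872, 2675, 4353 and 3888 in Ago413-/-, also apart, with a log2 fold change of 1.18 (SE 0.37, adjusted p = 0.0380), called in 8 of 17. miR-98 held 162, 256, 321 and 206 CPM against 652, 284, 616 and 459, with replicate 2 inside the Ago413+/- range. Its log2 fold change was 1.18 (SE 0.32, adjusted p = 0.0220), called in 12 of 17.

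let-7i was called as well, with a log2 fold change of 0.87 (SE 0.20, adjusted p = 0.00914). Its Ago413+/- levels of 9778, 10268, 10306 and 8968 CPM were the tightest of any group and all below the lowest Ago413-/- library, at 11610. let-7f had 0.85 (adjusted p = 0.0211), let-7d 0.80 (adjusted p = 0.0389) and let-7j 0.80 (adjusted p = 0.0359). let-7a (0.43, adjusted p = 0.245) and let-7g (0.31, adjusted p = 0.340), the 2 most abundant members, were not called. Ago413-/- levels above all Ago413+/- levels were found for 6 members (let-7b, let-7c, let-7e, let-7f, let-7i and let-7j), beside 8.22% of 450 miRNAs. By plain CPM this held for 4 of them.

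Leaving out 1 library cut the number called at any fold change from 8 to 1 without Ago413-/- replicate 1 (let-7c), to 2 without Ago413+/- replicate 4, to 3 without Ago413-/- replicate 3 or Ago413+/- replicate 1, and to 5 without Ago413+/- replicate 2. The number at 2-fold fell from 4 to 1 in the first of these cases and to 2 in the next 3. miR-126a-3p was higher here too, with a log2 fold change of 2.01 (adjusted p = 0.00567), and the endothelial sum was 857 to 1159 CPM in Ago413+/-, below every Ago413-/- library. The blood markers miR-486a-5p (1.55, adjusted p = 0.108) and miR-451a (1.58, adjusted p = 0.256) did not pass. The part of these cells in the result was not tested. The sum over the common seed had a log2 fold change of 0.44 (SE 0.20, adjusted p = 0.146 over 353 seeds), and no other setting brought it under 0.05.

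No member was called between Ago413+/- and Ago413+/+ RS (0.00% of 426 called, 68 with an unadjusted p under 0.05). let-7c, let-7d and let-7e were among the 68. By the point estimates 9 of the 10 members were lower in Ago413+/-, with a median log2 fold change of -0.33. let-7b (-0.77), let-7e (-0.74), let-7c (-0.72) and let-7d (-0.69) were the farthest from 0, and the smallest adjusted p was 0.231. These values stand beside those of Ago413-/- because both comparisons use the same Ago413+/+ libraries.

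The test of a genotype effect that differs between SP and RS called no member. The interaction of cell type with Ago413-/- against Ago413+/+ called 0 of 10 members (0.00% of 450), and 55 of the 450 had an unadjusted p under 0.05. let-7a came nearest, with an interaction of -1.36 on the log2 scale (SE 0.52, adjusted p = 0.381), the fold change being lower in RS than in SP. The median over the members was -0.42, and 5 were above 0. Without SP Ago413-/- replicate 2, let-7a had -0.73 (adjusted p = 0.602), the median was 0.16 and 8 members were above 0. With all libraries, the interaction for let-7i, let-7j and miR-98 was 0.18, 0.13 and 0.19, with standard errors of 0.30, 0.39 and 0.56.

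The miRNAs that lie beside let-7 hairpins gave a mixed picture. miR-99a-5p, the neighbour of let-7c, was higher in Ago413-/- than in Ago413+/- RS, with a log2 fold change of 1.21 (SE 0.30, adjusted p = 0.0124), and had 0.70 against Ago413+/+ (adjusted p = 0.0968). miR-100-5p (0.92, adjusted p = 0.0515), miR-99b-5p (0.86, adjusted p = 0.130), miR-125b-5p (0.79, adjusted p = 0.133) and miR-125a-5p (0.68, adjusted p = 0.218) did not pass against Ago413+/-. None of these 5 miRNAs passed in SP or against Ago413+/+ in RS. miR-202-3p, which has the seed of let-7j, had log2 fold changes in RS of 0.34 against Ago413+/+ and 1.05 (adjusted p = 0.0510) against Ago413+/-.

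Likeness between members over the 24 libraries did not simply follow their sequences. For the 5 pairs that differ by 1 base, Pearson's r of log2 CPM lay between 0.63 and 0.97, with a median of 0.69, and for the other 40 pairs between -0.36 and 0.99, with a median of 0.58. The closest pair was let-7c and let-7e (r = 0.99), which differ by 2 bases and lie on different chromosomes, followed by let-7b and let-7e (0.98) and let-7b and let-7c (0.97). let-7a and let-7g, the most abundant members, had an r of 0.00 over all 24 libraries. SP Ago413-/- replicate 2 held the highest let-7a level (79606 CPM) and the lowest let-7g level (20379 CPM) of the 24. The r values of these pairs were not computed without that library. The points of a correlation share library depth, base composition and preparation, and the values are a description without a test.

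Outside the family, the miRNAs with the most similar pattern to the summed members, among 440 compared over 24 libraries, were miR-470-5p (r = 0.82), miR-1198-5p (0.81), miR-465b-5p (0.80), miR-423-5p (0.77) and miR-741-3p (0.77). Among single members the closest outside partner was miR-129-5p for let-7c (0.96) and let-7e (0.95), miR-760-3p for let-7b (0.95), miR-92a-3p for let-7a (0.90), miR-1198-5p for let-7d (0.86), miR-547-3p for miR-98 (0.85), miR-470-5p for let-7f (0.81), miR-148a-3p for let-7i (0.80), miR-1839-5p for let-7j (0.78) and miR-22-5p for let-7g (0.70). The last rested on SP Ago413-/- replicate 2 and was 0.31 without it.

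let-7j was counted at a small fraction of let-7i in every library. Its counts of 36 to 350 were 1.42% to 2.77% of those of let-7i, with group means between 1.83% and 2.24%. The r of the pair was 0.88, lower than that of let-7c and let-7e (0.99). Of the 24 let-7j counts 23 were even numbers, the exception being 125 counts in SP Ago413-/- replicate 1. Among 196 miRNAs with at least 10 counts in every library, let-7j was the only one with 23 or more even counts, and the median was 13. The cause of the even counts, and whether let-7j reads are a molecule apart from let-7i, was not tested.

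**Figure D4:**
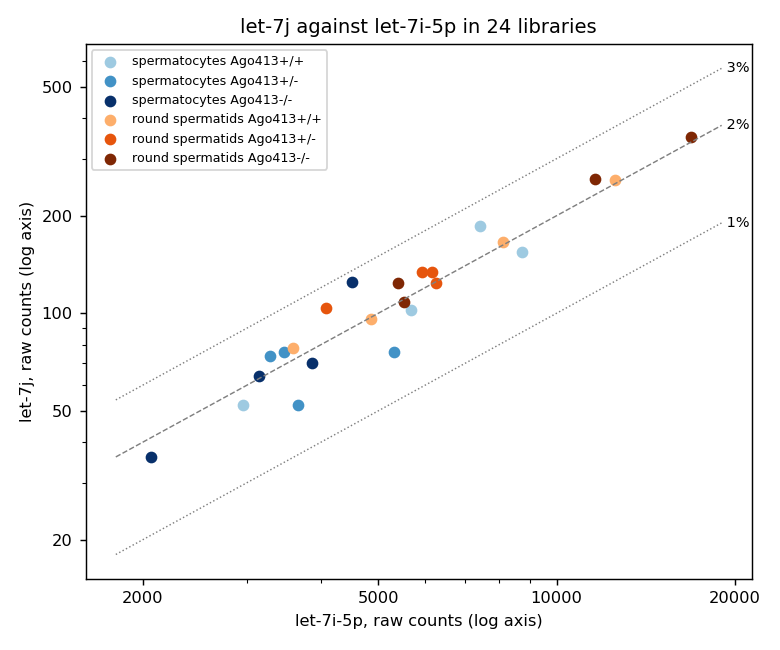
Raw counts of let-7j against raw counts of let-7i-5p in the 24 libraries (both axes logarithmic, colour by group); grey lines mark let-7j at 1%, 2% and 3% of let-7i. All libraries lie between 1.42% and 2.77%.

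The ratio of the 5p strand to the 3p strand of the same hairpins was measured where the 3p strand had at least 20 counts in every library. One 3p sequence is listed under both let-7a-1 and let-7c-2 with the same counts, so let-7a and let-7c were summed. In SP the ratio was 185, 199, 196 and 159 in Ago413+/+ and 333, 874, 339 and 408 in Ago413-/-. The groups did not overlap, also without the highest library. The difference was 1.28 on the log2 scale, with p = 0.0286 in a two-sided exact permutation test, the smallest that 4 libraries against 4 can give, and 0.0762 after adjustment over the 4 such tests made. In RS the ratio was 208 to 273 in Ago413+/+ and 239 to 432 in Ago413-/-, a difference of 0.42 (exact permutation p = 0.0571, adjusted 0.0762). Strand ratios of hairpins outside the family were not measured, so whether such a separation is particular to let-7 was not tested.

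let-7d, whose 3p strand was far more abundant, had a ratio of 5.08 to 9.10 in Ago413+/+ SP and 8.61 to 15.0 in Ago413-/- SP, a difference of 0.89 on the log2 scale (exact permutation p = 0.0571, adjusted 0.0762). In RS the ratio was 3.18 to 9.21 against 7.19 to 9.92 (exact permutation p = 0.286). The estimates were higher in Ago413-/- in all 4 tests, and none passed an adjusted p of 0.05. In Ago413+/- SP the ratio of let-7a and let-7c was 142 to 206 in 3 libraries and 531 in replicate 4. In Ago413+/- RS it was 133 to 193.

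**Figure D5:**
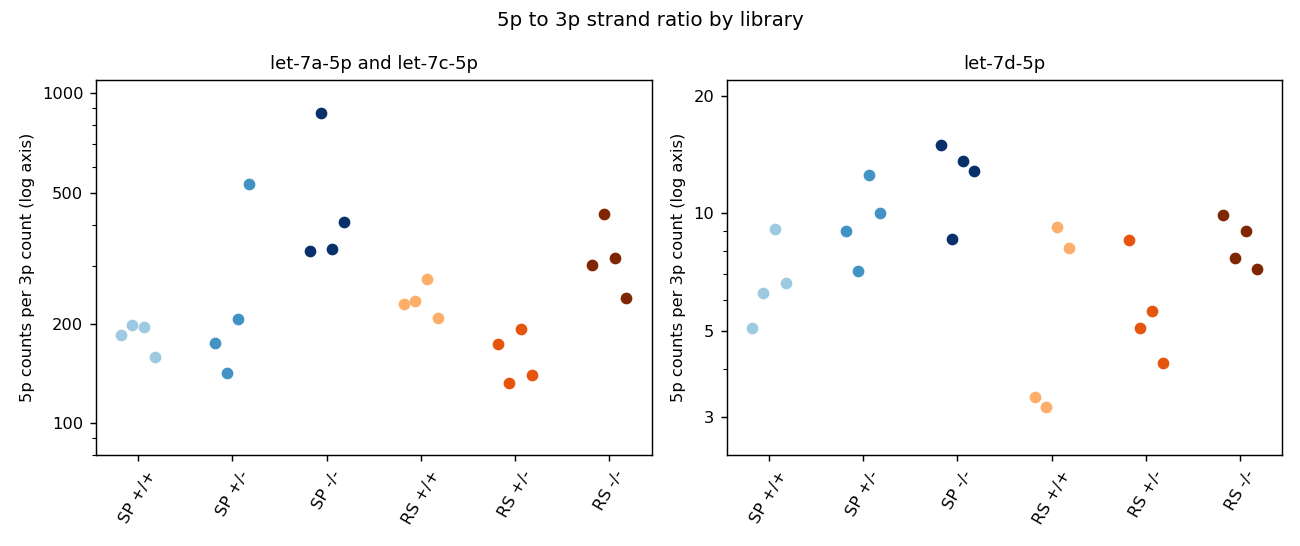
Counts of the 5p strand per count of the 3p strand (log axes) in the 4 libraries of each group, for let-7a and let-7c together and for let-7d. In SP the Ago413-/- points of let-7a and let-7c, from 333 to 874, lie above all Ago413+/+ points, from 159 to 199.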

How the data were processed

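Small RNA libraries were made by the submitters with a ligation-based kit from RNA of enriched germ cells. The authors trimmed reads with Trim Galore, removed very short ones, matched the rest to mouse mature miRNAs of miRBase with miRDeep2, and deposited raw counts per mature miRNA without normalization. All columns were used and assigned to samples by the column names given in the labels. Of the 1978 miRNAs, 754 had no count in any library, and a count of 0 allows up to 3 counts.

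The members and the lists of markers and neighbouring miRNAs were chosen with earlier results of these data known. Named were all members, miRNAs with their seeds, cluster neighbours, the 5 miRNAs most like the summed members, the 1 most like each member, and 3p strands as ratios. Counts were analysed in R 4.3.3 with edgeR 4.0.16. A miRNA was kept where 3 or more libraries held 10 or more counts (404 in SP, 426 in RS, 450 over all), and counts were scaled by TMM and tested with the quasi-likelihood test over the 3 genotypes of a cell type, or over all 6 groups for comparisons of cell types. Adjusted p-values are Benjamini-Hochberg over all miRNAs or seeds of a fit, where a miRNA without a RefSeq sequence stood as its own seed. The calls were an adjusted p under 0.05, either alone or with a log2 fold change of 1 or more in size. CPM were computed with TMM factors over 24 libraries, and likeness on their log2 values with a prior count of 2. Strand ratios used a pseudocount of 0.5; their tests, the GC offset (loess, span 0.75, on the 373 of 450 miRNAs with a RefSeq sequence) and the count of members at any fold change under each alternative were added after seeing the data. Alternatives were DESeq2 1.42.0, RLE scaling, library totals, no filter, at least 10 counts in every library, only the groups compared, a term for library numbers above 60, the replicate block, and leaving out each library. Library numbers, from 1 to 90, are those in the column names, and the labels do not say what they mark. On either side of 60 they are ordered by genotype, so the term cannot separate that order from genotype. The fits were tested on simulated counts. Tables were made with Python 3.11.15, pandas 2.3.3 and numpy 2.4.6.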

Additional observations from a re-analysis of the deposited data

Results flagged for a closer look

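Of 126 sets of 4 libraries examined, 13 had 1 library whose distance from the nearest other was most of the group's range. Chance alone gives about 1 such set in 20. The number given for each is that distance as a share of the range.

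SP Ago413-/- replicate 2 accounted for 7 of the 13. It was the highest library of its group for let-7b (0.881), let-7c (0.927), let-7d (0.937), let-7e (0.847) and let-7f (0.870), and for the share of the library in the members (0.915). It was the lowest for the share of let-7g in the members' counts (0.893). SP Ago413+/- replicate 4 was the highest of its group for let-7b (0.919), let-7c (0.932) and let-7e (0.890).

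The other 3 were single cases. In SP Ago413+/+, replicate 4 was highest for the share of let-7g in the members' counts (0.860) and replicate 1 for that of let-7i (0.835). In RS Ago413+/-, replicate 1 was lowest for let-7e (0.909).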

How the results depend on the processing

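let-7j, let-7e and miR-98 had fewer than 100 counts in some libraries; the part of depth in the results was not tested. In RS, the members at an adjusted p under 0.05 against Ago413+/+ numbered 4 at any fold change and 0 at 2-fold; the former became 2 with RLE scaling, 1 with library totals, 0 without a filter, 2 with 10 counts in every library, 0 with only the groups compared, 2 with the library number term and 0 with the GC offset. Against Ago413+/-, 4 at 2-fold and 8 at any fold change became 0 and 3 with library totals, 8 at any fold change became 4 without a filter and 5 with the GC offset. In SP, 0 became 1 with DESeq2 and 2 without a filter against Ago413+/+, and 1 without a filter against Ago413+/-. For RS against SP in Ago413-/-, 0 became 1 with DESeq2, with 10 counts in every library (at any fold change) and with the GC offset. The cause of these changes was not tested.

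In no set of groups did every same-numbered pair correlate above 0.1, though 3 of 4 did in 2 sets. Between the cell types in Ago413+/+, r was -0.16 to 0.37 for same-numbered pairs and -0.41 to 0.41 for the others. Same-numbered SP and RS libraries mostly carry adjacent library numbers, such as 1 and 2 or 89 and 90. The labels do not say whether such libraries share a suspension, so they were not treated as pairs. If they do share one, the main tests between the cell types left that pairing out. With the replicate block, the RS count against Ago413+/+ was 2 (let-7i and let-7j), let-7a there was 0.032 and let-7g between the cell types in Ago413+/+ was -0.016. No member was called between the cell types in Ago413+/+ with that block (adjusted p of 0.985 to 0.986 from edgeR).

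Values near 0 changed sign. Against Ago413+/+ in RS, let-7d was -0.10 with library totals, -0.12 without a filter, -0.12 with only the groups compared and -0.18 with the GC offset, let-7g was -0.13 with the GC offset, and let-7a was 0.0053 with the library number term. Between the cell types in Ago413+/+, let-7f was -0.095, -0.027 and -0.023 and let-7g -0.12, -0.042 and -0.059 with library totals, without a filter and with 10 counts in every library, let-7g was -0.016 with only the groups compared and -0.018 with the library number term, and miR-98 was 0.0018 with the GC offset. Without the 5 most abundant other miRNAs, the members' share was 15.6%, 17.1% and 19.5% in SP and 15.3%, 14.4% and 17.9% in RS (Ago413+/+, +/- and -/-).

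Leaving out 1 library at a time, the count against Ago413+/+ in RS ran from 0 to 1 at 2-fold and from 0 to 4 at any fold change, against Ago413+/- from 1 to 4 and from 1 to 8 in RS and from 0 to 3 by either rule in SP, and between the cell types in Ago413-/- from 0 to 1. Fold changes against Ago413+/+ in RS ran from -0.42 to 0.24 for let-7a, -0.24 to 0.30 for let-7d, -0.094 to 0.39 for let-7g and -0.0063 to 0.25 for the seed family, and in SP from -0.39 to 0.022 for let-7g. Between the cell types in Ago413+/+ they ran from -0.031 to 0.48 for let-7a, -0.028 to 0.67 for let-7b, -0.043 to 0.34 for let-7d, -0.099 to 0.23 for let-7f, -0.16 to 0.16 for let-7g, -0.41 to 0.18 for miR-98 and -0.029 to 0.28 for the seed family. In the other settings, 296 fold changes of members kept their direction and side of the threshold, 44 lost the call, 3 gained it and 17 changed sign, and the seed family kept both in 24 of 24. With 1 library left out, 245 kept both, 51 lost the call and 24 changed sign. Most of the fold changes tallied were not called in the main fit and so had no call to lose. The only calls open to loss were the 4 in RS against Ago413+/+ and the 8 against Ago413+/-. With a pseudocount of 5, 29 group means of the log2 strand ratio moved by more than their replicate spread and 19 did not, among them those of let-7a with let-7c and of let-7d in every group.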
